A study of Saccharomyces cerevisiae with 24 samples.

Results

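The DNA within 25 kb of the 16 centromeres of budding yeast is described here, in the 1-kb bins in which genome replication was measured. A bin belonged to these pericentromeric flanks when its midpoint lay no more than 25 kb from the centromere of its chromosome, and no measured value entered the choice. The tables held 768 such bins of 11328, and a replication time could be fitted for 765 of them (11302 in all). The flanks hold 801 possible windows, of which 33 had no bin in the tables, and 3 bins had no usable fit.

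Budding yeast has point centromeres, short stretches of DNA made of the conserved elements CDEI and CDEIII on either side of the AT-rich CDEII. CDEI is bound by Cbf1 and CDEIII by the CBF3 complex, and together they seat a single nucleosome that carries the histone H3 variant Cse4. The kinetochore assembled there recruits, through its Ctf19 complex, the kinase Dbf4-Cdc7 (DDK), which acts on nearby licensed origins. Yeast centromeres are known for replicating early in S-phase, and cohesin is loaded around them.

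Replication was followed by sync-seq, in which the DNA of a synchronous culture is sequenced through S-phase and the reads of each bin are divided by those of the same strain in G1. Both strains were haploid MATa cells of the W303 background (rad5-535, can1-100, leu2-3, 112, trp1-1, his3-11, 15, ura3-1 and ade2-1), and both lacked SML1, whose product holds back ribonucleotide reductase. The control strain, sml1Δ, carried sml1Δ::URA3. The second strain, sml1Δ SSDDCS, carried sml1Δ::HphNT (named HphMX in the study's strain list) and 3 cassettes with the GAL1-10 promoter, which drove Sld7 and Cdc45 from leu2, SLD3-A and Dbf4-A from his3, and Sld2 and Dpb11 from trp1. These 6 factors are limiting for, or act together in, the firing of licensed origins. Cells of both strains grown in raffinose were held in G1 with alpha factor, given galactose for 30 min while still arrested, and released into S-phase in galactose at 30°C. The cells were collected at 5, 10, 15, 20, 25, 30, 35, 40, 45, 50 and 60 min, with 1 library per strain and time and 1 culture per strain, so the values describe 2 time courses and have no replicate error. The loci leu2 and trp1, where 2 of the 3 cassettes were placed, both lie inside the flanks.

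The ratio of a bin rises from 1 to 2 copies as it is replicated, and Trep is the fitted time in min after release at which it passes 1.5. Each table was scaled by its depositors so that its mean equals the bulk DNA content from flow cytometry. Each Trep has an SE from its fit, and the spread between neighbouring bins gave a second error, which was 2.46 min for the difference between the strains over the genome and 2.09 min in the flanks. A difference is SSDDCS minus sml1Δ, so a negative value means earlier in SSDDCS. Bins per table ranged from 11310 to 11322, and the noise between neighbouring bins from 3.85% to 5.34% in sml1Δ and from 4.94% to 5.67% in SSDDCS. The depth behind each ratio is unknown, because the tables hold no read counts.

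The centromeres of the chromosomes whose flanks were moved earlier the most (XI and XII) and of those whose flanks were not (III and IX) are shown from the reference strain S288C (RefSeq, R64), each 5′ to 3′ from CDEI to CDEIII, with CDEI and CDEIII in capitals and CDEII in lower case. CEN11 lies at chrXI:440129-440246 and CEN12 at chrXII:150828-150947, both on the minus strand. CEN3 lies at chrIII:114385-114501 and CEN9 at chrIX:355629-355745, both on the plus strand. All 4 are intergenic.
CEN11: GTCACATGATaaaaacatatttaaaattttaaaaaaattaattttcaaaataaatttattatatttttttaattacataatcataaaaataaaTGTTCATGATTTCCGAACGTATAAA
CEN12: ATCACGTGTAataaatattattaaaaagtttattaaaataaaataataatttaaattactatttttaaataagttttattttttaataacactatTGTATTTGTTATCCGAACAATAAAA
CEN3: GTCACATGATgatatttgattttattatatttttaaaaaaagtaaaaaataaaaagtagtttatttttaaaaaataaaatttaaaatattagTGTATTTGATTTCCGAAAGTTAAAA
CEN9: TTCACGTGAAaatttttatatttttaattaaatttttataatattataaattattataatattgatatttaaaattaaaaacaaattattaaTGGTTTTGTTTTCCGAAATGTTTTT
The 16 centromeres are alike in build. They are 111 to 120 bases long, with a CDEI of 10 bases, a CDEIII of 25 bases and a CDEII of 76 to 85 bases, 86.9% to 97.6% of it A or T. The flanks around them were close to the rest of the genome in base composition, with 37.8% G+C against 38.3%, and in protein-coding genes, with 52.1 against 49.6 per 100 kb. They were richer in annotated origins (5.0 against 2.77 per 100 kb), in tRNA genes (4.0 against 2.16) and in long terminal repeats (5.75 against 3.0 per 100 kb).

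In the control the flanks replicated early and together. The median Trep of the 765 fitted bins was 19.6 min in sml1Δ, against 23.9 min for the 10537 bins farther away. The central 80% of flank bins fell within 3.73 min of each other, and the other bins within 9.64 min. In SSDDCS the flanks had a median Trep of 19.2 min and the other bins 21.1 min. The flanks were thus almost as early in both strains, while the rest of the genome drew closer to them. The median difference between the strains was -0.454 min in the flanks and -2.59 min elsewhere. Flank bins were also less alike in SSDDCS, with a central 80% that spanned 6.77 min, while that of the other bins was close to its control value at 10.1 min. The neighbouring-bin error of a single Trep was also larger in SSDDCS, 2.06 against 1.22 min, and its part in the wider spread was not tested.

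Few flank bins moved earlier by more than their error, and more moved later than over the genome as a whole. Of the 765 bins, 438 (57.3%) had an earlier Trep in SSDDCS, where 76.6% of all bins did. Beyond the 95% limits of the fit SE, 144 flank bins (18.8%) were earlier, against 47.6% of all bins, and 84 (11.0%) were later, against 5.62%. With the larger error from neighbouring bins, 8 flank bins (1.05%) were earlier, against 23.9% of all bins, and 30 (3.92%) were later, against 1.96%. Of the bins 25 to 50 kb from the centromere, a larger share was later, 15.6% beyond the fit SE and 6.72% beyond the neighbouring-bin error. In that belt 55.4% of bins were earlier, 23.0% beyond the fit SE and 5.49% beyond the neighbouring-bin error. The single-bin differences of the flanks ran from -6.22 to 15.2 min. These shares describe neighbouring bins of 1 culture per strain and were not tested.

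The sign and size of the flank difference rested on the scaling and the fit. It was -1.08 min with a scale fitted for each bin, -0.986 min by linear interpolation and -0.913 min from the 10, 20, 30, 40 and 50 min libraries alone. With the bulk factors of sml1Δ used for both strains the flank median became 1.84 min and that of the other bins -0.419 min, and with each strain centred on its own median Trep the flanks came out 2.14 min later. Without the 20 min libraries the flank median was 0.0599 min. The other bins then had -2.58 min, and in each of these settings the flanks moved less toward early replication than the other bins.

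The ratios themselves carry the bulk factor of their library. The median ratio of the flank bins was 1.00, 1.01, 1.15, 1.53, 1.90, 1.99, 2.01, 2.02, 2.02, 2.02 and 2.0 in the 11 libraries of sml1Δ, from 5 to 60 min. In SSDDCS it was 1.02, 1.11, 1.29, 1.59, 1.76, 1.87, 1.93, 1.95, 1.98, 1.98 and 2.0. On these scaled ratios the flanks of SSDDCS were ahead of those of sml1Δ from 5 to 20 min and behind them from 25 to 50 min. Division by the mean of all bins of the same library cancels the bulk factor. At 5, 10, 15 and 20 min the flanks of SSDDCS then stood at 0.999, 0.9995, 1.004 and 1.07 times the mean. Those of sml1Δ stood at 0.993, 0.993, 1.007 and 1.12, so SSDDCS was below sml1Δ at 15 and 20 min. The flanks of sml1Δ stood 12.2% above the genome in the 20 min library, 18.3% in that of 25 min and 12.4% in that of 30 min. SSDDCS reached its highest excess already at 20 min, 7.02%, followed by 5.80% at 25 min and 4.14% at 30 min. At 25 min all 16 chromosomes had flanks above the genome mean in sml1Δ, from 1.10 times the mean on XVI to 1.22 times on IV. In SSDDCS the range at 25 min was 0.984 on XVI to 1.13 on I, with 15 of 16 above 1. At that time the bins within 50 kb of chromosome ends stood at 0.954 times the genome mean in sml1Δ and at 1.07 in SSDDCS, where the flanks stood at 1.06.

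**Figure D1:**
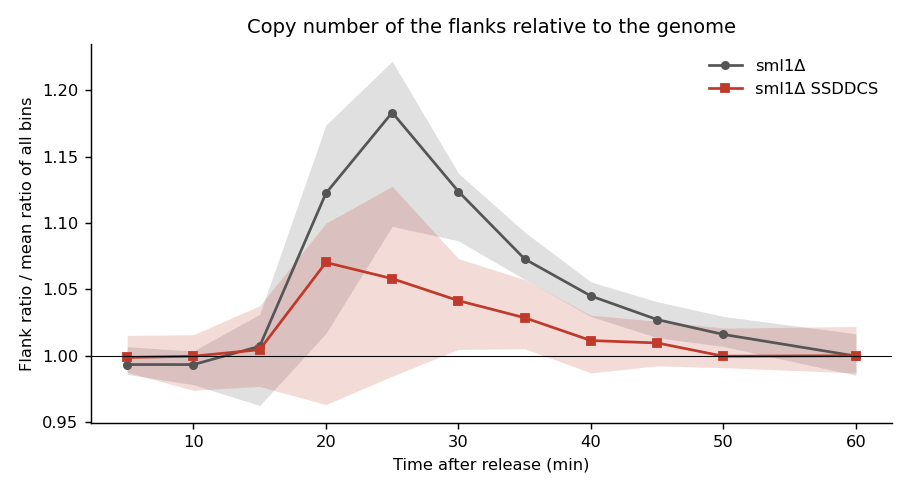
Median ratio of the flank bins divided by the mean ratio of all bins in the same library, against time after release in min. Lines and points are the medians over all flank bins of sml1Δ (grey circles) and sml1Δ SSDDCS (red squares), and bands span the lowest and highest chromosome. The sml1Δ curve peaks at 18.3% above the mean at 25 min and the SSDDCS curve at 7.02% at 20 min.

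By distance from the centromere, the control profile was nearly flat across the flanks. In sml1Δ the median Trep was 19.6 min within 5 kb, 19.4 min from 5 to 10 kb, 19.3 min from 10 to 15 kb, 19.6 min from 15 to 20 kb and 20.4 min from 20 to 25 kb. In SSDDCS the same classes had 19.9, 19.0, 18.5, 18.9 and 19.8 min. The earliest bins in SSDDCS thus lay 10 to 20 kb out, and the innermost and outermost bins of the flank were the latest. The differences were -0.0307, -0.584, -0.852, -0.927 and -0.336 min, and 80 of 159, 88 of 154, 92 of 145, 90 of 153 and 88 of 154 bins were earlier. Of the bins within 5 kb, 10 passed the fit SE limits as earlier, against 31 to 35 in each of the other classes. With a scale fitted per bin in place of the fixed rise from 1 to 2, the classes had -0.602, -1.17, -1.26, -1.43 and -1.06 min, so the innermost class still moved the least.

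**Figure D2:**
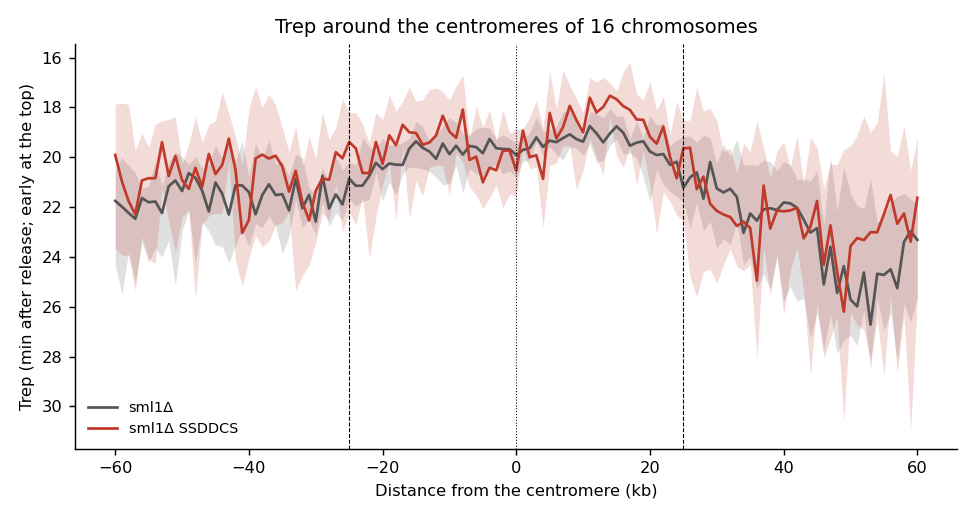
Trep in min after release, with early at the top, against signed distance from the centromere in kb. Lines are medians over the bins of 16 chromosomes at each kb, bands span the 25th to 75th percentile, dashed lines mark 25 kb, and sml1Δ is grey and sml1Δ SSDDCS red. The lines lie close together within 5 kb of the centromere (19.6 and 19.9 min) and farthest apart within the flanks at 10 to 20 kb.

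A local delay at the centromere was seen on most chromosomes in SSDDCS and on fewer in sml1Δ. Per chromosome, the median Trep within 5 kb minus that from 10 to 20 kb had a median of 0.921 min in SSDDCS, with 12 of 16 chromosomes above 0. It was -0.245 min in sml1Δ, with 6 of 16 above 0, and it was higher in SSDDCS than in sml1Δ on 14 of 16. Chromosome VIII had the strongest delay, 4.39 min in SSDDCS against 1.82 min in sml1Δ. This measure was chosen after the profile had been seen. The SSDDCS value was 0.345 to 1.33 min under 21 alternatives, while the sml1Δ value changed sign under 2 of them.

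Nothing in the profile changed abruptly at 25 kb. The bins 24 to 25 kb out had medians of 20.6 and 19.2 min in the control and SSDDCS, and those 25 to 26 kb out 20.9 and 19.7 min. From 30 to 35 kb the medians were 21.6 and 22.1 min, with a difference of 0.08 min. The 729 fitted bins between 25 and 50 kb had a median difference of -0.363 min, close to that of the flanks, and their medians were 21.8 and 21.5 min. Against this belt alone, the flank was at -2.003 min in sml1Δ and at -2.012 min in SSDDCS, as medians over chromosomes, so its lead over its own surroundings was the same in both. The bins within 50 kb of chromosome ends went from 24.6 to 19.6 min, a difference of -4.62 min.

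On each chromosome the flank led the other bins by less in SSDDCS than in the control. The flank minus the other bins of its chromosome was -4.05 min in sml1Δ (median of 16, from -6.28 min on IV to -2.18 min on XVI), below 0 on all 16. In SSDDCS it was -1.76 min, from -3.05 min on VII to 1.03 min on IX. It was below 0 on 13 chromosomes, and the flanks of VIII (0.167 min), IX and XVI (0.708 min) were later than the rest. The change was 2.85 min as a median over chromosomes. It was smallest on XII (0.382 min) and largest on VIII (4.36 min).

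**Figure D3:**
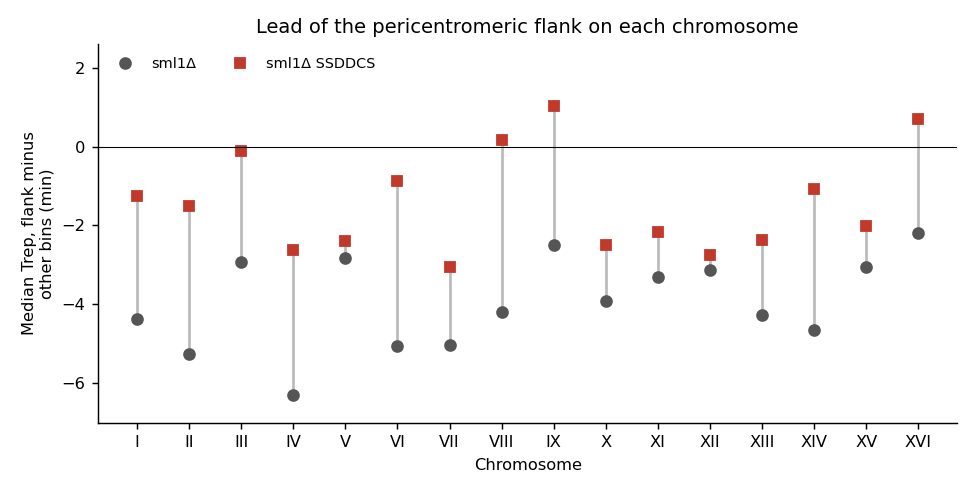
Median Trep of the flank minus that of all other bins of the same chromosome, in min, for each of the 16 chromosomes, with sml1Δ as grey circles and sml1Δ SSDDCS as red squares joined by a line. All circles lie below 0 and every square lies above its circle, with VIII, IX and XVI above 0.

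The flanks of individual chromosomes had control medians from 18.9 min (IV) to 21.4 min (XVI) and SSDDCS medians from 18.3 min (I) to 21.5 min (XVI). The flank median difference was negative on 14 of 16 chromosomes. It was lowest on XI (-1.52 min), where 40 of 50 bins (80%) were earlier, and then on XII (-1.46 min) and XV (-1.35 min). That share on XI was close to the 76.6% of all bins that were earlier, and the other bins of XI had -2.56 min. The flank median difference was positive on III (0.381 min) and IX (0.848 min), where 18 of 50 bins (36%) were earlier. The SD of these medians over chromosomes was 0.634 min. Both arms of XI were earlier, at -1.58 and -1.46 min on the left and the right, while the right arm of IX was the latest of 32 arms, at 1.39 min. On chromosome V the arms went opposite ways, with 0.759 min on the left and -1.004 min on the right.

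The profiles were more uneven within a flank in SSDDCS. With Trep averaged over 9 bins, the earliest and latest points of a flank were 3.48 min apart in sml1Δ and 5.60 min in SSDDCS, as medians over chromosomes, and the spread was larger in SSDDCS on 14 of 16. Noise between bins can widen this spread, and the neighbouring-bin error was 2.06 min in SSDDCS and 1.22 min in sml1Δ. Its part was not tested. The spread ran from 2.67 min on IV to 16.2 min on XII in SSDDCS, and from 1.79 min on IV to 5.06 min on IX in sml1Δ. The straight-line slope of Trep with distance was small in both, at 0.0445 min per kb in sml1Δ (above 0 on 13 chromosomes) and 0.0180 min per kb in SSDDCS (above 0 on 10).

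**Figure D4:**
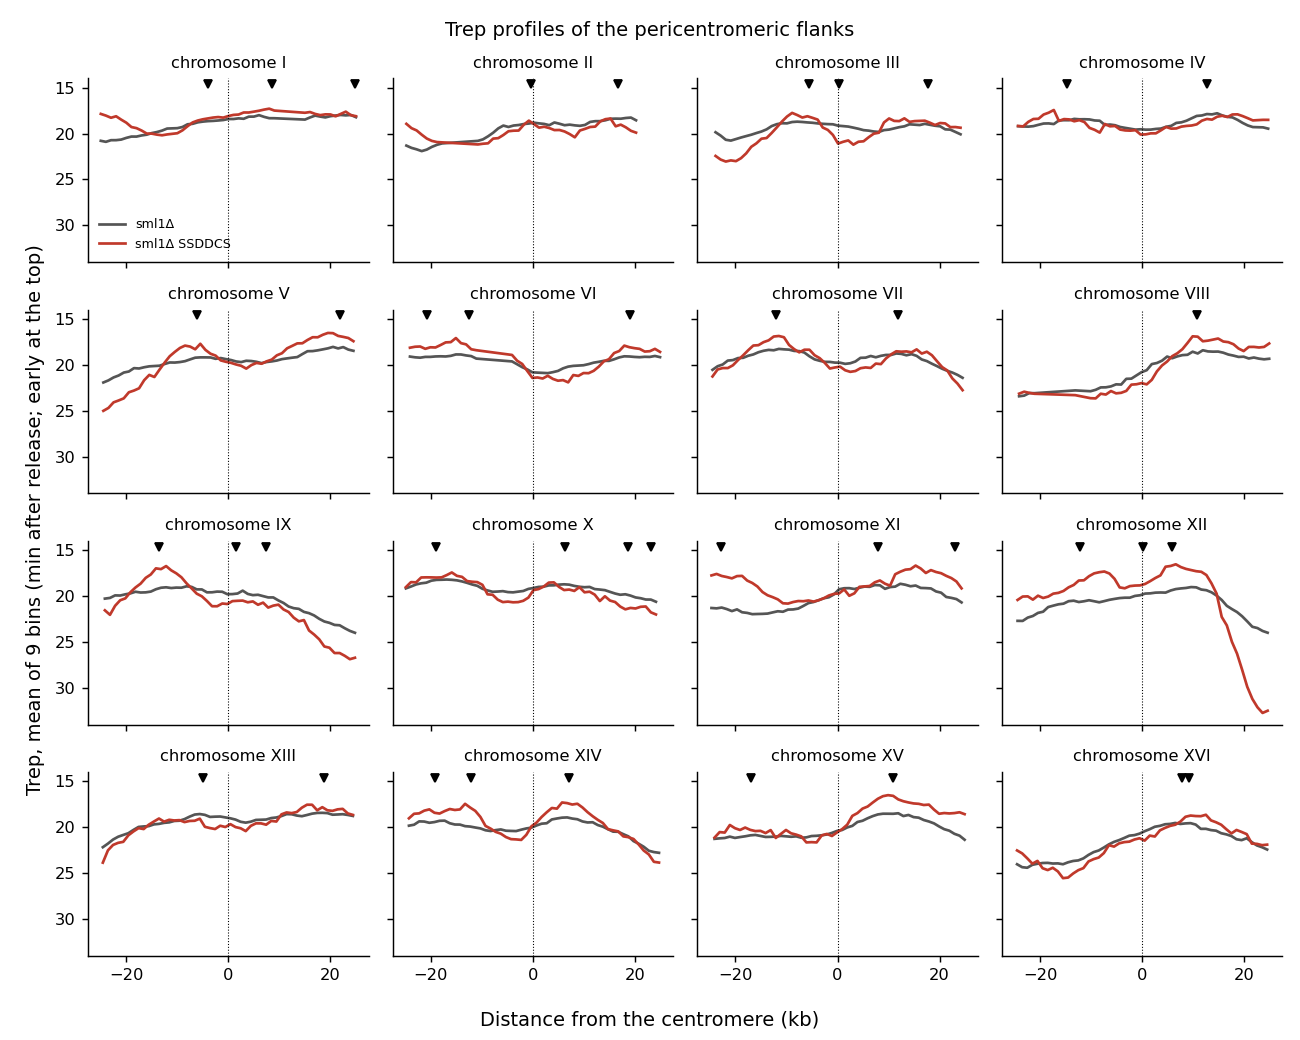
Trep averaged over 9 bins, in min after release with early at the top, against distance from the centromere in kb, for the flanks of 16 chromosomes. sml1Δ is grey, sml1Δ SSDDCS is red, and black triangles mark annotated origins. The SSDDCS profile runs from 16.5 to 32.7 min on chromosome XII, and from 17.4 to 20.1 min on IV.

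The bins that hold the centromeres themselves were nearly unmoved. The 16 bins had a control Trep from 18.2 min (CEN1) to 21.7 min (CEN8). At 20 min their ratios ran from 1.34 (CEN8) to 1.69 (CEN1) with a median of 1.52 in sml1Δ, and from 1.39 (CEN12) to 1.67 (CEN1) with a median of 1.496 in SSDDCS. At 25 min these medians were 1.89 and 1.77. At 10 and 15 min they were 1.00 and 1.11 in sml1Δ and 1.07 and 1.20 in SSDDCS. On these scaled ratios the centromeres of SSDDCS were thus ahead at 10 and 15 min, level at 20 min and behind at 25 min. Divided by the mean of all bins of the library, the bins within 5 kb stood at 1.13 in sml1Δ and 1.05 in SSDDCS at 20 min. The differences ran from -1.03 min (CEN14) to 5.85 min (CEN12), and no centromere was earlier beyond either error in this fit. After CEN12 the most positive were CEN13 (2.78 min) and CEN9 (1.90 min), both within the limits of their fit SE. With a scale per bin these became -0.192 min and -3.43 ± 1.09 min, and CEN9 and CEN10 (-2.97 ± 1.42 min) were then earlier beyond the limits of their fit SE.

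CEN12 was the only centromere later beyond both errors, by 5.85 ± 1.69 min (fit SE). Its bin read 0.988, 1.07, 1.17, 1.55, 1.92, 2.06, 1.98, 2.0, 1.97, 1.81 and 2.01 in sml1Δ from 5 to 60 min. In SSDDCS the same bin read 0.936, 0.960, 1.18, 1.39, 1.59, 1.70, 1.77, 1.84, 1.85, 1.83 and 1.85. The bin read lower in SSDDCS than in sml1Δ except at 15 and 50 min, and it ended low in SSDDCS, at 1.85. Its neighbours on XII from 0.6 to 4.6 kb to the right had differences from -3.24 to -1.34 min. When each bin was given a scale of its own, the difference at CEN12 was 0.959 ± 0.870 min, and 14 of 16 centromere bins were earlier in SSDDCS, with a median of -0.995 min. That fit also made 582 of the 765 flank bins earlier, with a median of -1.08 min. The share of all bins earlier under it was not computed.

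The same low end level was shared by many of the bins called later. The 30 flank bins later beyond the neighbouring-bin limit had a median ratio of 1.84 over the 45, 50 and 60 min libraries of SSDDCS, against 1.99 for all flank bins, and 2.04 against 2.02 in sml1Δ. With a scale fitted per bin 18 of them were later and 6 stayed beyond the limit of 4.83 min. The 8 bins earlier beyond the limit all stayed earlier, with a median of -3.45 min, and 1 of them stayed beyond the limit. The 30 and the 8 bins were called from these same ratios, by the fit with a fixed rise from 1 to 2. Their late ratios and refitted signs are thus not independent of the calls. Whether the low end level set the calls was not tested.

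Origins are the sites where the origin recognition complex loads the Mcm2-7 helicase, and in yeast they contain a match to the 11-base ARS consensus sequence or a close variant. The flanks hold 40 annotated origins, 1 to 4 on a chromosome, of which 39 had a Trep. Their median Trep went from 19.5 min in sml1Δ to 18.2 min in SSDDCS, and that of the 285 origins elsewhere from 21.6 to 18.3 min. Flank origins thus started ahead of the others in the control and ended level with them. The median difference was -0.959 min in the flanks and -3.35 min elsewhere, and 28 of 39 flank origins (71.8%) were earlier, against 87% of all origins. Beyond the fit SE, 13 flank origins were earlier and 2 later (ARS1 and ARS1016), against 55.9% and 2.16% of all origins. The flank origin median was -2.505 min with a scale per bin (37 earlier), -2.09 min by interpolation (35 earlier) and -0.497 min without the 20 min libraries (22 earlier). It turned to 1.76 min with the control bulk factors and to 1.64 min with each strain centred (12 earlier in both). The shares of all origins earlier under these settings were not computed. An exact match to the consensus, on either strand, stood in 18 of the 40 flank origins (45.0%) and in 33.97% of the others, whose median lengths were 242 and 241 bases.

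Origins were ranked among those whose Trep had an SE of 2 min or less in sml1Δ and in SSDDCS. The 5 of them with the most negative differences had a fit SE well below the shift by which they were picked. ARS1113, 22.9 kb left of CEN11, had a difference of -6.22 ± 1.51 min, and it alone in the flanks passed the neighbouring-bin limit, as 30.6% of all origins did. It no longer passed at -3.52 min with a scale per bin or -3.64 min with ratios averaged over 5 bins. Its bin read 1.14, 1.39 and 1.74 at 15, 20 and 25 min in sml1Δ and 1.42, 1.81 and 1.99 in SSDDCS. The next were ARS919 on IX (-4.57 ± 1.01 min), ARS307 on III, inside LDB16 (-4.07 ± 1.38 min), ARS510 on V (-3.80 ± 1.27 min) and ARS1425 on XIV, inside ASI3 (-3.66 ± 0.889 min). A scale fitted per bin left all 5 earlier, from -3.52 to -1.24 min, where the 95% limits of ARS307 and ARS510 included 0.

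The 5 with the most positive differences under the same SE limit were less clear. ARS1, next to TRP1 and 12.8 kb right of CEN4, had a difference of 4.54 ± 1.28 min, with -0.780 and 0.647 min in the bins on its left and right, and 1.08 ± 0.983 min when a scale was fitted per bin. ARS309 on III (2.81 ± 2.01 min), ARS719 on VII (2.2 ± 1.5 min), ARS921 on IX (1.39 ± 1.13 min) and ARS1017 on X (1.28 ± 2.08 min) lay within the limits of their fit SE. Of these, only ARS1 and ARS921 stayed later with a scale fitted per bin. Above that SE limit, and named after their values were seen, were ARS1016 on X, inside TDH2 (4.30 ± 2.13 min), and ARS1309 on XIII (3.37 ± 2.09 min, within the limits of its fit SE).

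The ranked origins with the largest shift in each direction are shown with ARS919, which lay near the earliest point of the chromosome IX profile in SSDDCS. They are on the plus strand of the reference (RefSeq, R64), with exact matches to the ARS consensus on either strand in capitals. ARS1113 lies at chrXI:417185-417417, ARS919 at chrIX:341976-342045 and ARS1 at chrIV:462567-462622, all intergenic.
ARS1113: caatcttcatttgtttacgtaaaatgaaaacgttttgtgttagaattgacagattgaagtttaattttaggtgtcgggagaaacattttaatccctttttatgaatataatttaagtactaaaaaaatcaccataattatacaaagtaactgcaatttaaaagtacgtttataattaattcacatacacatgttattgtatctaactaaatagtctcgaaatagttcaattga
ARS919: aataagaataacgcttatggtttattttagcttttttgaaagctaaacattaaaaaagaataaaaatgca
ARS1: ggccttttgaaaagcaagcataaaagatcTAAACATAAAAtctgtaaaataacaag
Only ARS1 holds an exact match, and 0.308% of all 56-base windows of the genome do. The share was 1.43% for windows of 233 bases and 0.390% for windows of 70 bases, the lengths of ARS1113 and ARS919. No match says only that these letters are not in the annotated stretch.

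**Figure D5:**
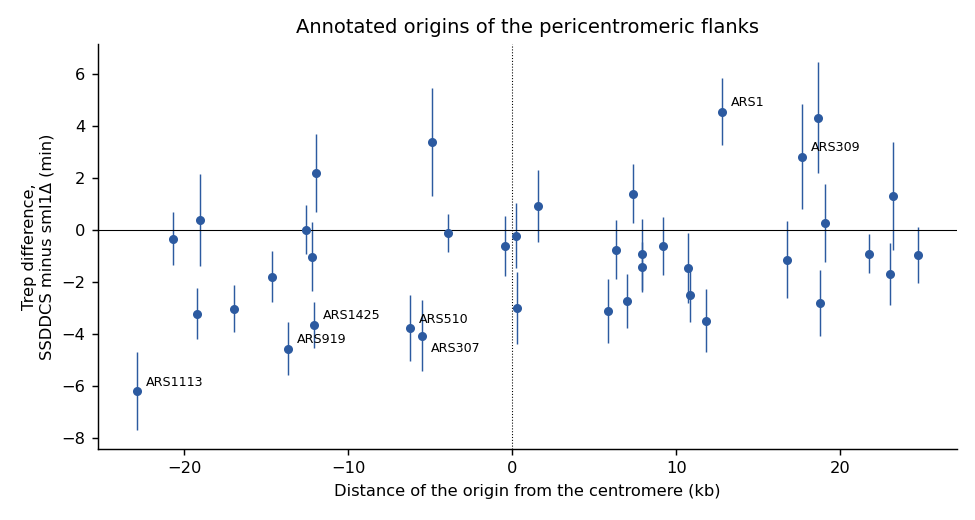
Trep difference in min (SSDDCS minus sml1Δ) of the 39 fitted flank origins against their distance from the centromere in kb. Points are the bins that hold the origin midpoint, and bars are 1 SE of the fit. Of the points, 28 lie below 0, from ARS1113 at -6.22 min to ARS1 at 4.54 min.

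The origin nearest each centromere lay 0.230 to 12.8 kb from it, with a median of 6.67 kb. These 16 origins had median Trep values of 19.1 and 18.3 min in sml1Δ and SSDDCS and a median difference of -0.856 min, with 12 earlier and 4 later. Nearest were ARS308 on III (0.230 kb, -0.225 ± 1.25 min), ARS1208 on XII (0.270 kb, -3.03 ± 1.39 min) and ARS208 on II (0.460 kb, -0.620 ± 1.15 min). Of these, only ARS1208 passed the limits of its fit SE, as earlier. The median difference was -0.168 min for the 6 origins within 5 kb of a centromere, -1.43 min for the 9 fitted origins from 5 to 10 kb and -1.64 min for the 10 from 10 to 15 kb.

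Distance from an origin spread the flank bins over a wider range of times than distance from the centromere did. The median difference was -0.917 min for the 349 flank bins within 5 kb of an origin, -0.418 min for 230 bins at 5 to 10 kb, 0.258 min for 123 bins at 10 to 15 kb and 0.561 min for 63 bins at 15 to 30 kb. In SSDDCS their medians went from 17.97 min next to an origin to 23.2 min in the farthest class, and in sml1Δ from 19.1 to 22.5 min. Bins outside the flanks had differences of -3.32, -2.71, -2.29 and -2.06 min in the same classes. Flank bins moved less than the others at each distance from an origin. The others pool chromosome ends with the bins 25 to 50 kb from the centromere, which were not separated here. Flank bins were 5.58 kb from the nearest annotated origin at the median and the others 11.4 kb.

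Flank bins also moved less than other bins of like timing in the control. Among bins whose neighbours had a control Trep of 18 to 20 min, the median difference was -0.620 min over 487 flank bins and -1.23 min over 983 others. From 20 to 22 min the medians were -0.237 min for 212 flank bins and -1.57 min for 2000 others. From 22 to 24 min they were 0.448 min for 52 flank bins and -2.42 min for 2276 others. In the earliest class, 16 to 18 min, they were -0.225 and -2.57 min over only 8 bins each. The others pool the bins 25 to 50 kb from the centromere (-0.363 min over all timings) with the chromosome ends (-4.62 min). These were not separated by control timing.

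Stretches in which SSDDCS was later by 1 min or more reached into the flanks of many chromosomes. No stretch earlier by 5 min or more did, but that limit is the stricter, so the counts do not compare the directions. A later stretch was 5 or more bins whose moving average over 9 bins was at least 1 min. These held 73 flank bins (9.54%), against 4.77% of all bins and 23.5% of the bins 25 to 50 kb from the centromere, and stretches earlier by 5 min or more held no flank bin, against 13.9% of all bins. In all, 14 later stretches touched a flank. They were chosen by the Trep difference itself, so their positive means and their counts of later bins in that fit largely follow from the choice. The lowest 9-bin mean difference in a flank had a median of -1.81 min over chromosomes, from -3.96 min on XI to -0.801 min on X. The highest had a median of 1.65 min, from 0.640 min on I to 8.93 min on XII.

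The strongest lay right of CEN12, in the stretch chrXII:166001-192000, which holds 18 genes from PAM18, a subunit of the mitochondrial import motor, to UBR2, a ubiquitin ligase. Its 10 flank bins, 15.6 to 24.6 kb from CEN12, had a mean ratio of 1.02, 1.02, 1.10, 1.30, 1.70, 1.88, 1.98, 2.01, 2.0, 2.03 and 2.05 in sml1Δ. In SSDDCS it was 0.990, 1.09, 1.27, 1.34, 1.37, 1.53, 1.71, 1.81, 1.86, 1.91 and 1.94. SSDDCS was ahead at 15 min, barely rose from 20 to 25 min while sml1Δ rose steeply, and was still behind at 60 min. The mean difference of these bins was 5.90 min, with 9 of 10 later and 6 beyond the neighbouring-bin limit, and 5.47 min when each bin had its own scale (7 of 10 later). Left of the stretch the same flank replicated earlier in SSDDCS, so its profile ran from 16.5 min at 6.6 kb to 32.7 min at 23.6 kb from CEN12.

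A weaker stretch of the same kind lay right of CEN9. It is chrIX:371001-386000, with 13 genes from EGH1, a steryl-beta-glucosidase, to YIR018C-A, and had 10 flank bins 15.8 to 24.8 kb from CEN9. At 25 min their mean ratio was 1.72 in sml1Δ and 1.46 in SSDDCS, and at 15 min 1.04 and 1.18. The mean difference was 2.84 min, and 9 of 10 bins were later (10 of 10, by 2.74 min, with a scale per bin). On V the stretch chrV:120001-136000, from PXP1, a peroxisomal matrix protein, to the noncoding RNA gene YNCE0009C, had 9 flank bins with a mean difference of 2.81 min (1.478 min with a scale per bin).

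Chromosome III had 2 of the 5 stretches with the most flank bins. The stretch chrIII:113001-120000, from YCL001W-A to YCP4, contains CEN3. Its 7 bins were later by 2.38 min on average, and by -0.748 min, thus earlier, with a scale per bin. The stretch chrIII:90001-99000, from YCL019W to BUD3, a gene of axial bud-site selection, had 8 fitted flank bins, all later, by 2.41 min on average (2.39 min with a scale per bin). It contains LEU2. Shorter stretches of 5 bins lay in the flanks of VI, X, XIII and XVI, from 0.832 min on VI (YPI1 to YNCF0005C) to 2.53 min on X (CYR1, which encodes adenylate cyclase, to OST1), with 3 to 5 of 5 bins later. Fitted with a scale per bin, only the stretch on XVI (CHL1 to NCR1, 2.33 min) stayed later, at 0.410 min.

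LEU2, for leucine synthesis, and TRP1, for tryptophan synthesis, mark the sites of the 2 cassettes inside the flanks. LEU2 (chrIII:91324-92418, 22.5 kb left of CEN3) was fitted at 21.0 min in the control and at 25.96 min in SSDDCS, later by 4.96 ± 0.663 min over its 2 bins. The 3 bins to its right had differences of 0.773, 2.36 and 0.229 min, below those of the LEU2 bins. With a scale per bin the LEU2 bins had 3.48 and 2.98 min and the 3 bins to the right 1.99, 3.59 and 3.62 min, so LEU2 did not then stand out. TRP1 (chrIV:461842-462516, 12.4 kb right of CEN4) went from 18.2 to 20.1 min, a difference of 1.88 ± 0.833 min over 2 bins with -0.780 and 4.54 min, the second of which also holds ARS1. With a scale per bin the 2 bins had 0.0539 and 1.08 min. The cassettes carry copies of the marker genes, so reads of an inserted copy cannot be told apart from those of the native locus, and its part in these differences was not tested.

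The flanks hold 417 protein-coding genes, among them 2 of the 32 kinetochore, cohesin and replication genes examined. MCD1, the kleisin subunit of cohesin, had a difference of -0.846 ± 0.533 min, and CDC7, the catalytic subunit of DDK, -1.31 ± 0.637 min, both on chromosome IV. Of the 8 core histone genes 4 lie near CEN2. The H2A and H2B genes HTA2 and HTB2 had differences of 1.76 ± 1.80 and -0.381 ± 1.01 min, and the H3 and H4 genes HHT1 and HHF1 -2.11 ± 1.11 and -1.15 ± 1.49 min. Of these 6 genes only CDC7 passed the 95% limits of its fit SE, and none passed the neighbouring-bin limit. CDC7 spans 2 bins, of which chrIV:425001-426000 lies in the flank and had -0.823 ± 0.616 min, within its limits. The other bin lies more than 25 kb from CEN4.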

How the data were processed

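Synchronous S-phase libraries of both strains (22 tables, with 2 G1 samples as denominators) were analysed. The authors mapped reads to S288C (R64-2-1, sacCer3); the submitters' processing notes name Bowtie2 2.2.6, SAMtools 1.7.2 and bedtools 2.26.0. The deposited values are the ratio of S-phase to G1 reads per 1-kb bin, scaled by the authors to the bulk factor of the library. The means of the tables differed from that factor by at most 0.00403.

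A sigmoid from 1 to 2 was fitted per bin by least squares (Python 3.11.15, NumPy 2.4.6, pandas 2.3.3), with Trep at 1.5. A bin needed 9 time points, a Trep from 5 to 60 min and an SE no larger than 5 min in each strain. The fit was checked on simulated data. Noise in the G1 denominator, common to all time points, is not in the SE. With 1 library per group no significance test was run. Origins, genes and centromeres were taken from the RefSeq annotation of R64, whose centromeres lay within 0.0455 kb of those used to choose bins.

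The members and lists were chosen with earlier results of these data known. Named loci were all centromeres, the nearest origins, the 5 flank origins with the most negative and the 5 with the most positive difference among those whose Trep had an SE of 2 min or less in each strain, TRP1, LEU2, histone genes, the ends of the 5 later stretches with the most flank bins, and listed genes inside a flank. The alternatives were other bulk scaling, centring, interpolation, a scale per bin, averaging over 5 bins, subsets of time points, SE limits, flank widths and comparison bins.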

Additional observations from a re-analysis of the deposited data

How the results depend on the processing

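No paired analysis was possible because each group has 1 sample. Over 21 Trep results and 26 settings, 430 of 468 values kept their direction and moved by less than the SD over chromosomes (counts by less than 1.5 times), 21 moved by more and 17 changed sign. Some of the 430 could not move. The bulk setting left sml1Δ unchanged, and centring cannot change a contrast or slope within a strain. All 66 relative copy numbers under 3 other settings moved by less than that SD.

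The bulk scaling decided the sign of the difference between the strains. With bulk factors of sml1Δ applied to SSDDCS, its flank median was 21.5 min and the flank difference 1.84 min, with 127 bins (16.6%) and 0 chromosomes earlier, the flank origins differed by 1.76 min (12 earlier), and the bins within 5 kb and at 10 to 20 kb by 2.13 and 1.52 min. With each strain centred on its median Trep, the flank difference was 2.14 min (106 bins, 13.9%, and 0 chromosomes earlier), that of other bins 0.00588 min, of flank origins 1.64 min (12 earlier), and of the bins within 5 kb and at 10 to 20 kb 2.56 and 1.69 min.

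Interpolation gave 69.1% and a scale per bin 76.1% of flank bins earlier, the latter with -2.50 min at flank origins. The shares of all bins earlier under these settings were not computed. Trep within 5 kb minus 10 to 20 kb in sml1Δ was 0.05004 min with a scale per bin and 0.131 min with averaging over 5 bins, a measure that was itself added after seeing the data. The difference within 5 kb was 0.182 min with averaging over 5 bins, 0.224 min with the 5, 15, 25, 35, 45 and 60 min libraries, 0.525 min without the 20 min libraries and 0.223 min without the 25 min libraries. The SSDDCS gradient was -0.00819 min per kb with those 6 time points. Without the 20 min libraries the flank difference was 0.0599 min, with 7 chromosomes earlier. Against bins 25 to 50 kb away, the sml1Δ flank stood at -2.003 min. Without chromosome XII (added after seeing the data) the flank minus other bins was -4.19 min (sml1Δ) and -1.505 min (SSDDCS). The causes were not tested. Depth is unknown, so the tables cannot show how much of the noise is counting error, and 1 culture per strain gives no replicate error.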
